A study of Mus musculus with 6 samples.

Results

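Abhd3, Aqp4, Npc1, Dsc2, Mapre2, Zfp397, Kif5b, Ankrd29, Bambi and Rock1 are neighbours of Mib1 on mouse chromosome 18. Mib1 is the host gene of miR-1-2, which was deleted in the mice of this study. The 10 genes were chosen by symbol out of the 18193 genes measured, some because of their position and some because their values in this same comparison of knockout with wild type differed. They are carried by 29 of the 45037 probe sets on the array, and all 29 are described. Since the comparison helped to choose the genes, their differences are given as a description without a test.

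Hearts came from 3 miR-1-2 knockout mice and from 3 wild-type mice, all taken at postnatal day 10. Total RNA of each heart was hybridised to 1 Affymetrix array, and the values are RMA expression levels on the log2 scale, on which a difference of 1 is a doubling of signal. No source used here names the strain, the litters or the targeting construct. The microRNA itself was not analysed here.

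A gene that lies close to a targeted locus is inherited together with it. In a line made from embryonic stem cells of one strain and bred to another, the chromosome around the deletion can therefore stay that of the stem cells, and knockout and wild-type animals can differ there in sequence as well as in the deletion. Probes of a short-oligonucleotide array can also respond to such sequence differences directly. In this design the deletion, the DNA linked to it and the genotype label coincide, so these cannot be told apart. The 10 genes have little in common in function. They include enzymes and carriers of lipid and water, parts of the cytoskeleton, a desmosomal cadherin and an inhibitor of TGF-beta signalling.

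Array medians lay between 6.03 and 6.11, and arrays correlated at 0.991 to 0.997. The heart marker Myh6, the fast myosin of ventricle, stood between 14.31 and 14.40 in knockout and between 14.32 and 14.33 in wild-type hearts. Xist, which silences one X chromosome in females, stood at 7.55, 12.19 and 7.57 in knockout replicates 1 to 3, against 11.91, 12.13 and 12.08 in wild type. The Y-linked gene Eif2s3y stood at 7.63, 2.91 and 8.35 in knockout and between 2.85 and 3.16 in wild type, so sex was not balanced. Ucp1, a marker of brown fat, was at 10.39 and 9.45 in the first replicates of knockout and wild type, and between 5.22 and 6.68 in the other hearts. The mean of 5 myeloid markers was 7.62, 7.59 and 7.40 in knockout, against 7.97, 7.64 and 7.81 in wild type. Smooth muscle markers averaged 9.54, 9.56 and 9.14 in knockout, against 9.36, 9.25 and 9.09 in wild type. Of the lung markers, Sftpc stood at 7.07 in knockout replicate 2 and between 5.27 and 5.76 in the other hearts. The other lung markers Sftpb, Sftpa1 and Scgb1a1 were not raised in that heart, at 7.06, 4.92 and 5.11. Of the thymus markers, Rag1 stood at 5.90 in wild-type replicate 1 and between 3.68 and 4.52 in the other hearts. The part of sex or of fat, myeloid, smooth muscle, lung or thymus RNA in the differences below was not tested, except that values without the arrays concerned are given where stated. In whole hearts, a change in the number of cells of a type and a change in RNA per cell cannot be told apart.

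The neighbours of Mib1 did not move in one direction. With each gene represented by its brightest probe set, 7 of the 10 were higher in knockout and 3 were lower. Bambi and Aqp4 were higher without overlap between the groups, and Kif5b, Ankrd29 and Dsc2 were lower without overlap. After a further quantile normalization only Aqp4 and Dsc2 of the 10 had no overlap, and after centring each array on its median only Aqp4, Bambi and Kif5b. Over all genes, 4.57% were higher and 4.28% lower without overlap, and nothing is read from the larger share among genes that were picked partly for differing. The median difference of the 10 genes was 0.22, against 0.00048 over all genes. Samples of the same replicate number were also compared as pairs. Only the first replicates were more alike by number than when crossed, so pairs 2 and 3 rest on the label alone. Abhd3, Aqp4, Npc1, Mapre2, Zfp397 and Bambi were higher in 3 of 3 pairs, and Dsc2, Kif5b and Ankrd29 were lower in 3 of 3, where 15.2% and 13.2% of all genes do so upward and downward. Rock1 was higher in 2 of 3 pairs. The differences ran from 1.01-fold for Rock1 to 1.51-fold for Abhd3.

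**Figure D1:**
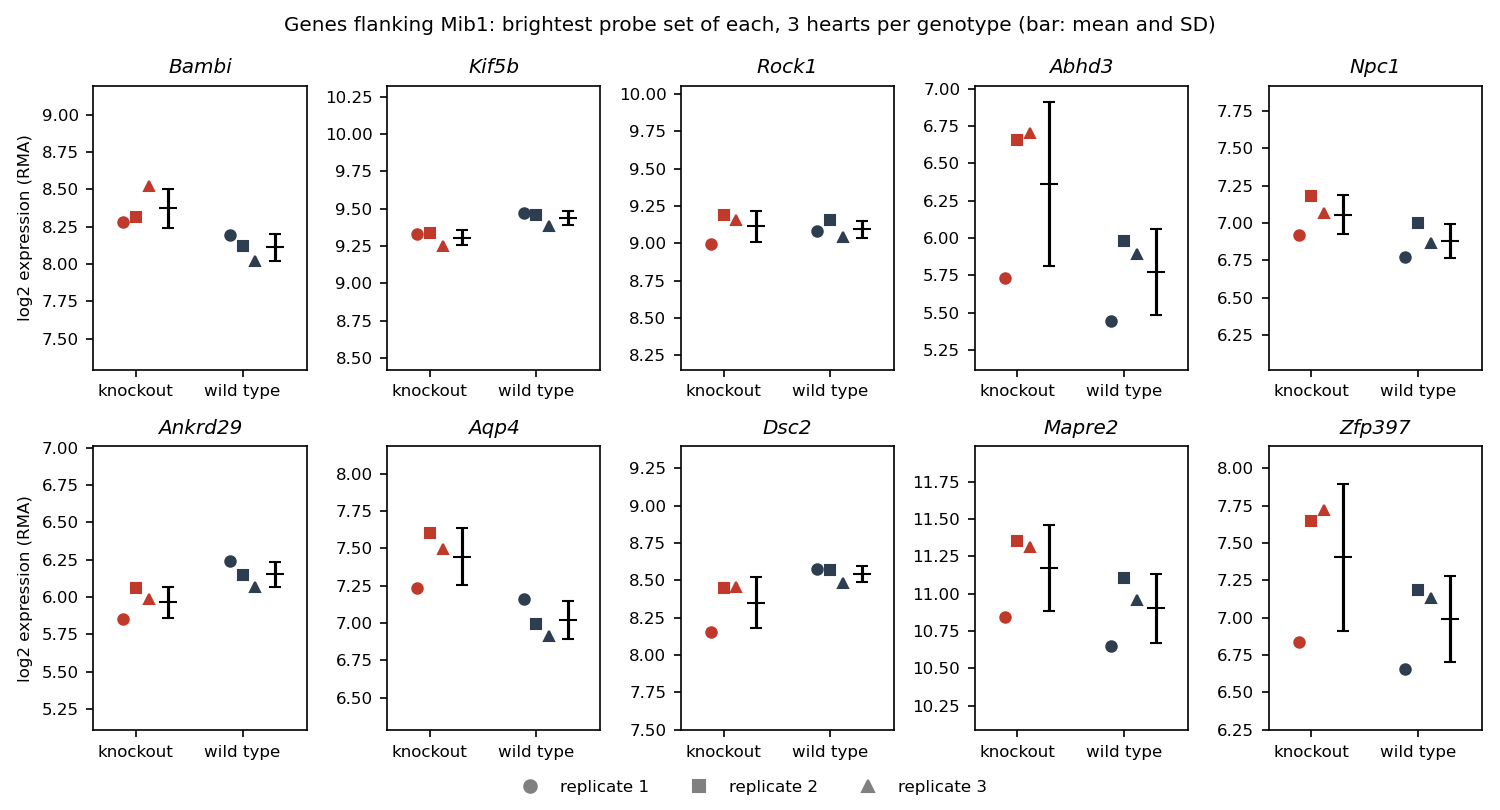
Log2 expression of the brightest probe set of each of the 10 genes, in chromosome order, in 3 knockout hearts (left, red) and 3 wild-type hearts (right, dark), with symbols for the replicate number and a bar for mean and SD. Every panel spans the same range of log2 units. Abhd3 and Zfp397 have the widest spread, and replicate 1 lies lowest in both genotypes for these genes, while Kif5b, Ankrd29 and Dsc2 lie lower in every knockout heart than in any wild-type heart.

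Among the genes of lipid and water handling, Abhd3 differed most. Abhd3 encodes an alpha/beta hydrolase that cleaves medium-chain phospholipids in mice, and of the 10 genes it lies closest to Mib1. Its only probe set (1417946_at) stood at 5.73, 6.66 and 6.70 in knockout replicates 1 to 3, against 5.44, 5.98 and 5.89 in wild type. Knockout replicates 2 and 3 lay above every wild-type heart, and knockout replicate 1 lay among the wild-type values, so the groups overlapped. The means were 6.36 ± 0.55 in knockout and 5.77 ± 0.29 in wild type (SD, n = 3 each), a log2 difference of 0.59 ± 0.36 (SE). Within pairs the differences were 0.29, 0.67 and 0.81. Without knockout replicate 1 the difference was 0.91, and without knockout replicate 3 it was 0.42.

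Npc1 exports cholesterol from late endosomes and lysosomes, and its loss in humans causes a lipid storage disease. Its probe set (1423086_at) was at 6.92, 7.18 and 7.07 in knockout, against 6.77, 7.001 and 6.87 in wild type. The ranges overlapped, although each knockout heart exceeded the wild-type heart of its number, by 0.15, 0.18 and 0.20. The difference of 0.18 ± 0.10 (SE) was a change of 1.13-fold. It was 0.11 without knockout replicate 2 and 0.30 with the Xist level as a covariate. That covariate fit rests almost wholly on knockout replicate 2.

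Aqp4 is a water channel, best known from the end feet of astrocytes and also made in muscle. Its brightest probe set (1434449_at) stood at 7.24, 7.61 and 7.49 in knockout, against 7.16, 6.997 and 6.91 in wild type. All knockout hearts were above all wild-type hearts, but knockout replicate 1 exceeded the highest wild-type value by little. The difference was 0.42 ± 0.13 (SE), or 1.34-fold, and it was 0.60 in replicates 2 and 3 alone. The other probe sets of Aqp4 did not repeat this size. One (1425382_a_at) was at 5.49 ± 0.14 in knockout and 5.27 ± 0.12 in wild type (SD, n = 3 each), and the other (1447745_at) was at 6.75 ± 0.15 and 6.78 ± 0.04, a difference of -0.033. The mean difference over the 3 probe sets was 0.20.

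Of the genes of the cytoskeleton, Mapre2 was higher in knockout, Kif5b was lower and Rock1 was nearly equal. Mapre2 encodes EB2, a protein that binds the growing ends of microtubules. The brightest of its 5 probe sets (1451989_a_at) was at 10.84, 11.36 and 11.31 in knockout, against 10.65, 11.10 and 10.96 in wild type. Both first replicates were low in their group, and knockout replicate 1 lay within the wild-type range, so the groups overlapped. The difference was 0.27 ± 0.21 (SE). It was 0.14 without wild-type replicate 1 and 0.43 without knockout replicate 1. All 5 probe sets had a higher mean in knockout, by 0.10 to 0.44. The smallest difference was in 1442553_at, at 5.89, 5.46 and 5.56 in knockout, against 5.35, 5.65 and 5.59 in wild type. In replicates 2 and 3 alone that probe set was lower in knockout, by -0.11. One of the 5 (1426245_s_at) was higher without overlap, at 9.92, 10.07 and 10.20 in knockout, against 9.45, 9.79 and 9.78 in wild type. Among all probe sets, 4.05% were higher and 4.65% lower without overlap.

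Kif5b is the heavy chain of kinesin-1, the motor that carries cargo outward along microtubules. Its brightest probe set (1418427_at) was at 9.33, 9.34 and 9.25 in knockout, against 9.47, 9.46 and 9.38 in wild type. Every knockout heart was lower than every wild-type heart, and the differences within pairs were alike, at -0.14, -0.12 and -0.14. The difference of -0.13 ± 0.04 (SE), a change of 1.10-fold, exceeded the spread within either group, which was 0.05 (SD) in both. All 6 Kif5b probe sets had a lower mean in knockout, by -0.23 to -0.029. In the other 5 the groups overlapped. The widest spread was in 1418428_at, at 8.32, 9.03 and 9.22 in knockout, against 9.004, 9.16 and 8.82 in wild type.

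Rock1 is a kinase that acts on actin and myosin. Its brightest probe set (1450994_at) was at 8.99, 9.19 and 9.16 in knockout, against 9.08, 9.16 and 9.04 in wild type. The knockout values surrounded those of wild type on both sides. The difference was 0.018 ± 0.07 (SE), and its sign changed in 5 of 16 other ways of processing, some of which could not change it. Of the 5 Rock1 probe sets 4 were lower in knockout and 1 was higher. The lowest was 1460729_at, at 7.15, 6.93 and 6.82 in knockout, against 7.27, 7.23 and 7.09 in wild type, a difference of -0.23 ± 0.11 (SE) with overlapping groups.

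Dsc2 encodes desmocollin-2, a cadherin of the desmosomes that hold heart muscle cells together. In humans, mutations of this gene are a cause of arrhythmogenic cardiomyopathy. Its brightest probe set (1426911_at) was at 8.15, 8.45 and 8.45 in knockout, against 8.58, 8.57 and 8.48 in wild type. All knockout hearts were lower, with replicate 1 well apart and replicates 2 and 3 close to the lowest wild-type heart. The difference was -0.19 ± 0.10 (SE), or 1.14-fold, and -0.092 without knockout replicate 1. A second probe set (1421156_a_at) was lower by -0.085 with overlap. The other desmosomal cadherins lie beside Dsc2 on the chromosome, and their values were looked at after those of Dsc2. Dsg2, which pairs with Dsc2 in heart desmosomes, differed by -0.11, with 1.00 as its limma adjusted p. The other measured members of the cluster, Dsc3, Dsc1, Dsg1a and Dsg1b, are mainly cadherins of skin and differed by 0.0010, -0.082, 0.019 and -0.025. Of these, Dsc1, Dsg1a and Dsg1b averaged 3.58, 3.51 and 2.91 in knockout, near the bottom of the scale, where RMA compresses differences.

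Bambi is a receptor-like membrane protein without a kinase domain that dampens TGF-beta and BMP signalling. Its probe set (1423753_at) was at 8.28, 8.32 and 8.52 in knockout, against 8.20, 8.12 and 8.02 in wild type. All knockout hearts were higher than all wild-type hearts, and the gap within pairs was 0.08, 0.20 and 0.50. The difference was 0.26 ± 0.09 (SE), or 1.20-fold. A probe set annotated to the pseudogene Bambi-ps1 was not counted.

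Zfp397 encodes a zinc finger protein and Ankrd29 an ankyrin repeat protein, and little is known of either in heart. The brightest Zfp397 probe set (1435664_at) was at 6.84, 7.65 and 7.72 in knockout, against 6.66, 7.19 and 7.13 in wild type. As for Abhd3, knockout replicates 2 and 3 were above every wild-type heart and knockout replicate 1 was not. The difference was 0.41 ± 0.33 (SE), and it was 0.70 without knockout replicate 1 and 0.25 without knockout replicate 3. The other probe sets of Zfp397 differed by -0.013 and -0.10, so the mean over its 3 probe sets was 0.10. Ankrd29 was at 5.85, 6.06 and 5.99 in knockout, against 6.24, 6.15 and 6.07 in wild type in its brighter probe set (1438756_at). The difference of -0.19 ± 0.08 (SE) came without overlap, although knockout replicate 2 lay only just under wild-type replicate 3. The dimmer probe set (1436294_at) averaged 3.24 ± 0.15 in knockout and 3.30 ± 0.08 in wild type (SD, n = 3 each), near the bottom of the scale.

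Counted over all 29 probe sets, 12 were higher and 17 lower in knockout, with a median of -0.014. Of these, 3 were higher without overlap (Bambi, 1 of Aqp4 and 1 of Mapre2) and 3 were lower without overlap (Kif5b, Ankrd29 and Dsc2, 1 each). Of the 7 genes with more than 1 probe set, 4 had all probe sets in one direction, which were Kif5b, Ankrd29, Dsc2 and Mapre2. Aqp4, Zfp397 and Rock1 had probe sets on both sides of 0. Probe sets of one gene read the same RNA samples at different places of the transcript and are not replicates of the comparison. Those whose names end in _s_at can bind transcripts of more than one gene, and those ending in _a_at bind several transcripts of one gene.

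**Figure D2:**
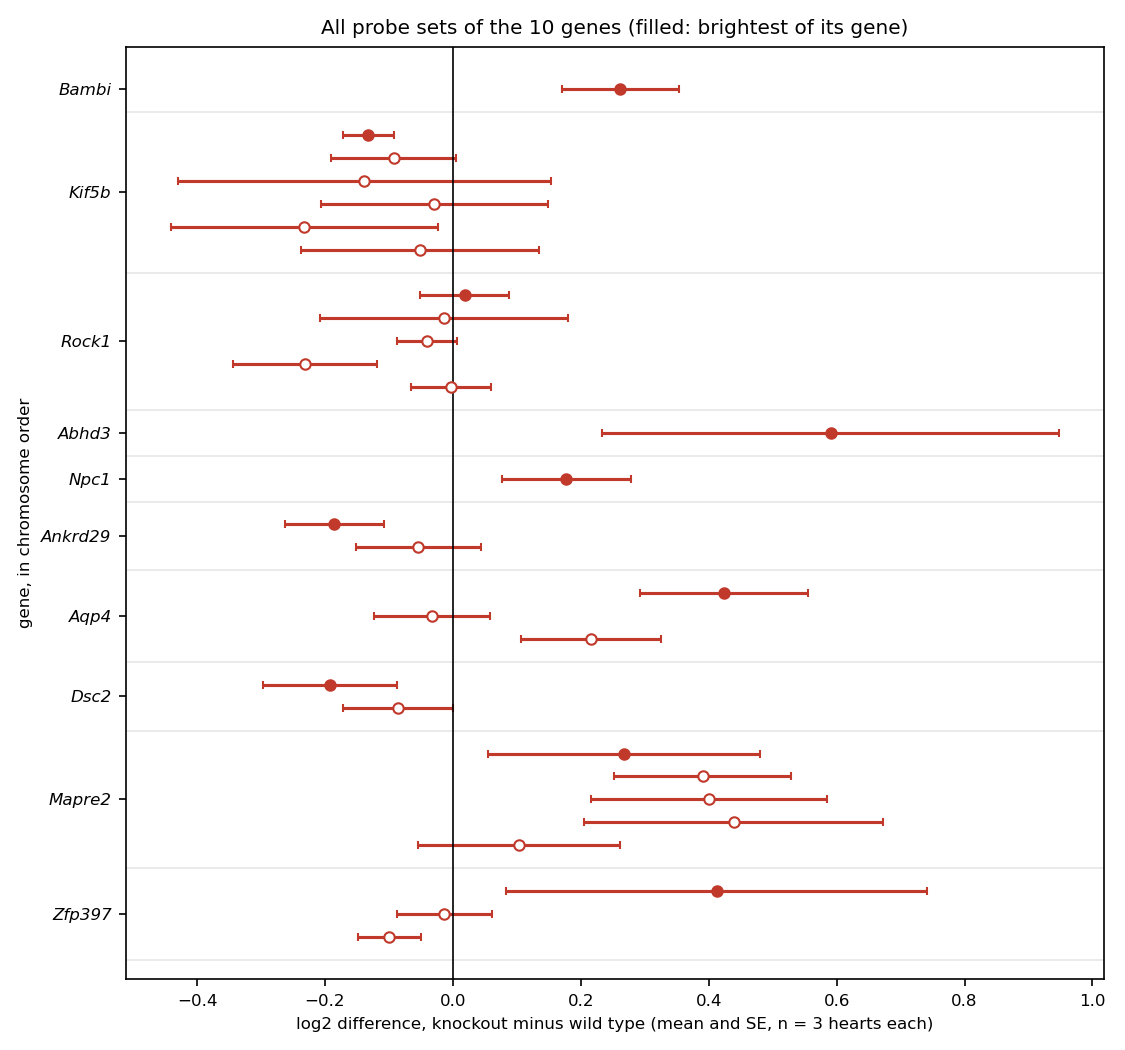
Log2 difference, knockout minus wild type, of each of the 29 probe sets with its SE (3 hearts per genotype), grouped by gene in chromosome order. Filled points are the brightest probe set of each gene. Mapre2 lies right of 0 throughout and Kif5b left of 0 throughout, while Aqp4 spans -0.033 to 0.42 and Zfp397 spans -0.10 to 0.41.

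All measured genes within 20 Mb of Mib1 were then set beside the 10, whatever their values. Their order was taken from RefSeq on GRCm38.p6. The window held 94 genes besides Mib1, of which 84 are not among the 10 described. Within 5 Mb of Mib1 lie 6 of the 10 genes (Kif5b, Rock1, Abhd3, Npc1, Ankrd29 and Aqp4), 2 lie between 5 and 10 Mb (Bambi and Dsc2) and 2 between 10 and 20 Mb (Mapre2 and Zfp397). Of the 94 genes, 46 were higher and 48 lower in knockout, with a median of -0.0019. Without overlap, 3.19% were higher and 4.26% lower, close to the 4.57% and 4.28% of all genes given above. The 84 others were higher in 39 and lower in 45 cases, 46.4% higher against 50.2% of all genes. Their median was -0.0059. Each array was also centred on its own median, which moved the median difference of all genes to 0.022. The share of the 84 genes that were higher was then 58.3%, beside 60.0% of all genes.

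Of the 84 genes 0 passed an adjusted p of 0.05 with limma, either without or with the replicate number as a block. Of all genes 0% passed without the block and 0.0715% with it. At an unadjusted p under 0.05 there was 1 of the 84, against 4.10% of all genes, and 2 of the 84 with the block, against 7.29% of all genes. The set lacks the 10 genes picked partly for differing, so its share is lowered by that choice. The 1 was Gata6, a zinc finger factor of heart development, the second measured gene beyond Mib1 toward the end of the chromosome. Gata6 stood at 9.92, 10.23 and 10.20 in knockout, against 9.40, 9.85 and 9.92 in wild type. The lowest knockout heart was just above the highest wild-type heart. The difference was 0.39 ± 0.14 (limma SE), with an adjusted p of 1.00 without the block and 0.183 with it. A second Gata6 probe set differed by 0.35 and the third by -0.024.

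The measured genes next to Mib1 on either side went both ways. Toward the start of the chromosome, Abhd3 was followed by Esco1, a cohesin acetyltransferase (0.14), Greb1l (-0.13), Rock1 (0.018) and Usp14, a deubiquitinase of the proteasome (-0.057). Toward the end, Gata6 was followed by Cables1 (0.16) and Tmem241 (-0.067). These are values of the brightest probe sets. Other probe sets of Esco1 (-0.026), Greb1l (0.0039) and Cables1 (-0.12) had the opposite sign. Those of Tmem241 differed by -0.23 and 0.036, and those of Usp14 were all lower. Npc1 and Ankrd29 are next to each other in the measured order and differed in opposite directions, by 0.18 and -0.19. Mapre2 and Zfp397 are also neighbours, and both were higher in knockout. The zinc finger genes just beyond Zfp397, Zfp35 and Zfp24, singled out after their values were seen, differed by 0.075 and 0.079.

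Other neighbours with the smallest unadjusted p also lay on both sides of 0. Celf4 (0.14), Ss18 (0.12), Wac (0.10) and Zeb1 (0.10) were higher in knockout, and Lyzl1 (-0.20), Rnf125 (-0.13), Taf4b (-0.15) and Ttc39c (-0.11) were lower. All of these had a limma adjusted p of 1.00. Besides Gata6, Armc4 was the only one of the 84 genes whose groups did not overlap. It was named after its values were seen and differed by -0.080. The size of the differences, as the median of absolute values, was 0.080 for the 41 others within 5 Mb, 0.033 for the 19 between 5 and 10 Mb and 0.052 for the 24 between 10 and 20 Mb. Over the 364 genes of the same chromosome farther away it was 0.066, and over all genes 0.062.

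**Figure D3:**
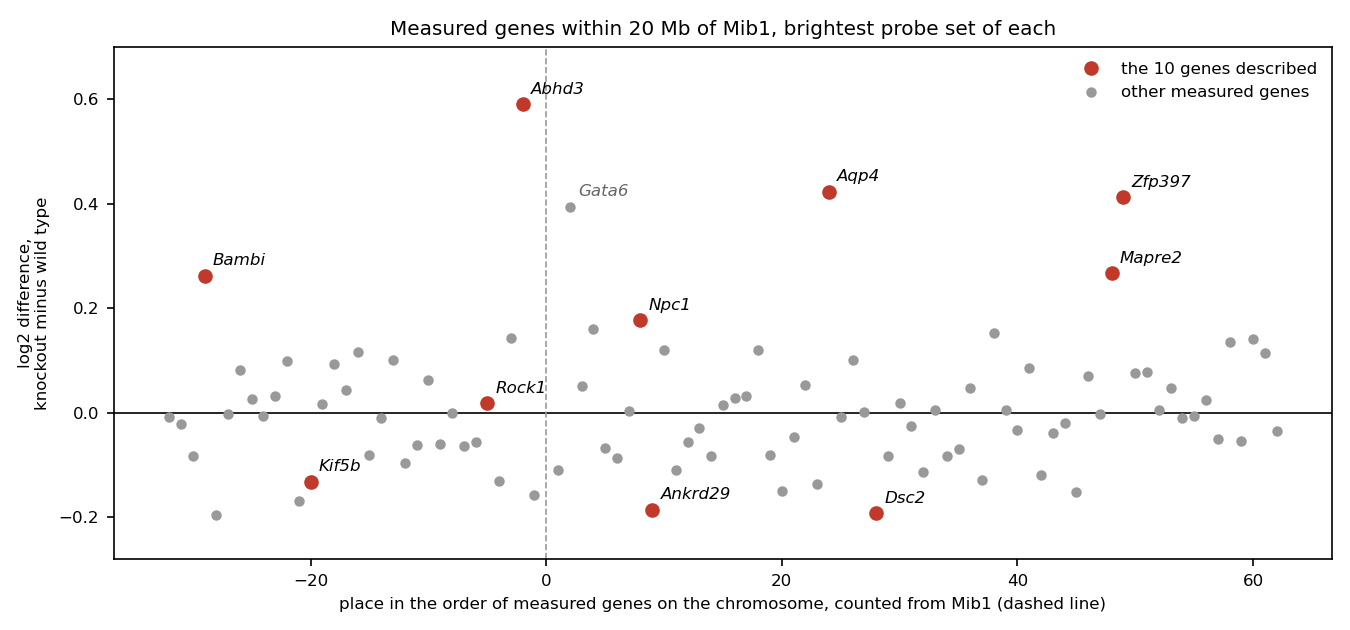
Log2 difference, knockout minus wild type, of the 94 measured genes within 20 Mb of Mib1, plotted by their place in the order of measured genes counted from Mib1. Red points are the 10 genes described, grey points the 84 others. The grey points scatter on both sides of 0 along the whole stretch, with 39 above and 45 below, and Gata6 is the highest of them at 0.39.

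Mib1 itself, a ubiquitin ligase of Notch signalling, had its brightest probe set at 7.56, 8.15 and 8.19 in knockout, against 8.19, 8.40 and 8.31 in wild type. All knockout hearts were lower than all wild-type hearts, the closest of them by little, and knockout replicate 1 was again the lowest. The difference was -0.33 ± 0.21 (SE), and the other probe sets of Mib1 differed by -0.13 and -0.040. A probe set outside the deleted part does not check the deletion.

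The first replicates stood apart for several of these genes. In 9 of the 10 genes knockout replicate 1 was the lowest knockout heart, where 39.9% of all genes had it lowest. Wild-type replicate 1 was the lowest of its group in 4 of them, Abhd3, Npc1, Mapre2 and Zfp397, where 39.2% of all genes had it lowest. Abhd3 in replicate 1 was below the mean of replicates 2 and 3 by -0.95 in knockout and -0.49 in wild type. For Zfp397 the same deviations were -0.85 and -0.50, and for Mapre2 they were -0.49 and -0.38. These replicates are the ones with high Ucp1, and Adipoq, the fat hormone adiponectin, was at 7.32 and 6.85 in them against 3.68 to 3.86 in the other hearts. Aqp4, Ankrd29, Dsc2 and Bambi were below the mean of the other hearts of their genotype in knockout replicate 1 and above it in wild-type replicate 1.

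**Figure D4:**
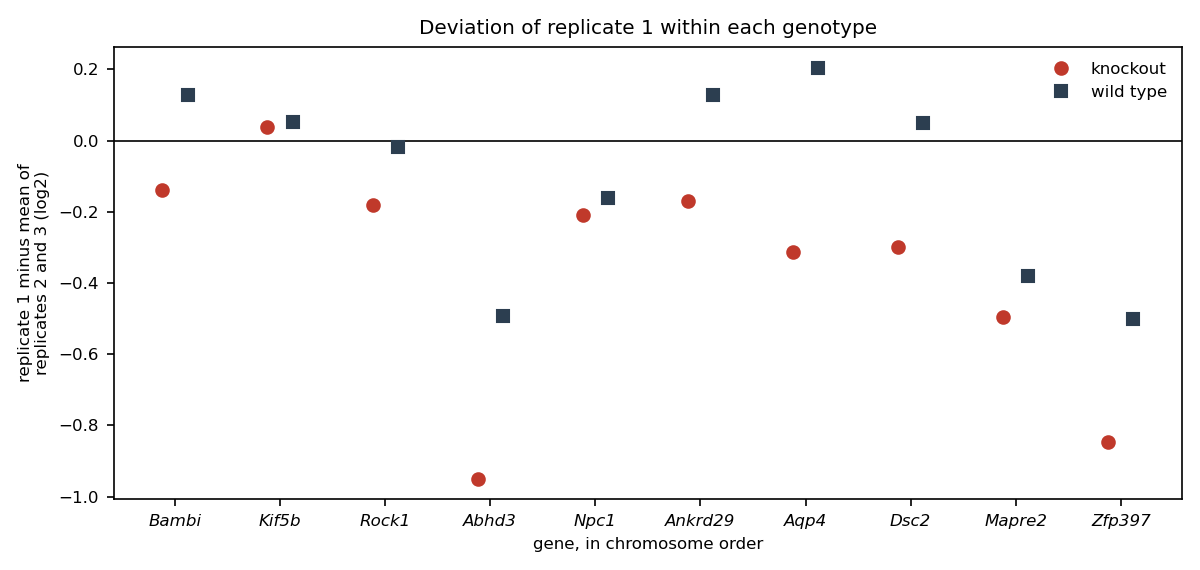
Value of replicate 1 minus the mean of replicates 2 and 3 of the same genotype on the log2 scale, for the brightest probe set of each of the 10 genes, in knockout (circles) and wild type (squares). Abhd3, Mapre2, Zfp397, Npc1 and Rock1 lie below 0 in both genotypes, Kif5b lies above 0 in both, and Bambi, Ankrd29, Aqp4 and Dsc2 lie below 0 in knockout and above 0 in wild type.

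With knockout replicate 1 left out, 10 of 10 genes had groups without overlap, 7 higher and 3 lower, beside 35.7% of the 84 others and 38.7% of all genes. Leaving out any other heart gave 5 or 6 of the 10, beside 14.0% to 17.0% of all genes. In replicates 2 and 3 alone, the differences were 0.74 for Abhd3, 0.60 for Aqp4, 0.53 for Zfp397, 0.35 for Bambi, 0.31 for Mapre2 and 0.19 for Npc1. For the lower genes they were -0.13 for Kif5b, -0.086 for Ankrd29 and -0.076 for Dsc2. The 1 knockout heart with high Xist, replicate 2, could be set against the 3 wild-type hearts, all of which have high Xist. It differed from their mean by 0.88 in Abhd3, 0.66 in Zfp397, 0.58 in Aqp4, 0.45 in Mapre2, 0.30 in Npc1 and 0.21 in Bambi. It was below their mean by -0.10 in Kif5b, -0.094 in Ankrd29 and -0.096 in Dsc2. This is 1 heart, which also enters the full difference, so the values are a description and no independent repeat. With the Xist level as a covariate, the differences were 0.88 for Abhd3, 0.66 for Zfp397, 0.57 for Aqp4, 0.45 for Mapre2, 0.30 for Npc1, 0.21 for Bambi and 0.091 for Rock1. They were -0.10 for each of Kif5b, Ankrd29 and Dsc2. Knockout replicates 1 and 3 were the only hearts with low Xist, so this fit rests almost wholly on knockout replicate 2. Its values nearly repeat those of that heart alone and are no second check.

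Genes related to the 10 by family or pathway, most of them on other chromosomes, did not pass either. Of 135 relatives in 7 lists, 130 were measured. Of these 85 were higher and 45 lower in knockout, 65.4% higher beside 50.2% of all genes, with a median of 0.033. Among them 0 passed an adjusted p of 0.05 with limma with or without the block. At an unadjusted p under 0.05 there were 9 (6.92%, beside 4.10% of all genes), or 16 with the block (12.3%, beside 7.29% of all genes with the block). Among 17 abhydrolases 12 were higher, led by Abhd6, a lipase of monoacylglycerol (0.33), and Abhd8 (0.30). Of 11 other aquaporins 6 were higher. Aqp1, the channel of vessel walls, was 0.19 higher and Aqp9 differed by -0.10. Of 17 cholesterol genes 10 had a higher mean in knockout. Srebf2, the main activator of cholesterol synthesis (0.25), and Scap, its escort (0.30), had the smallest p in that list.

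In the junction and cytoskeleton lists, too, 0 genes passed the adjusted p. Of 14 genes of desmosomes and adherens junctions 12 were higher, which is the direction opposite to Dsc2, with Ctnna3 (0.18) and Pkp4 (0.19) named by smallest p. Dsg2 and Cdh2 of that list lie within the window around Mib1. Dsg2, which pairs with Dsc2, was lower like it (-0.11), and Cdh2 was higher (0.10). Of 20 genes of kinesin-1 transport and microtubule ends 14 were higher, while Klc3 (-0.27) and Mapk8ip1 (-0.20) had the smallest p and were lower. Of 32 BMP and TGF-beta genes 19 were higher. Bmp10, a growth factor of the atria, differed by -0.27 and Bmp6 by 0.20. The adjusted p of each of these named relatives was 1.00 with limma. With the block, Abhd6 had the smallest, at 0.292.

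The gene whose profile over the 6 arrays was most like each of the 10 lay on another chromosome in every case. Besides Mib1, only 458 of the 18193 measured genes lie on its chromosome, so nothing is read from this. Abhd3 was closest to Clptm1l (Pearson r = 0.999 over 6 arrays, as are the values that follow), Zfp397 to Arhgap23 (0.999), Mapre2 to Trafd1 (0.999) and Npc1 to Pkm (0.998). Dsc2 was closest to Tktl1 (0.998), Ankrd29 to Tfam (0.994), Rock1 to Rab21 (0.993), Aqp4 to Tmem185a (0.992), Kif5b to Cybrd1 (0.991) and Bambi to Epas1 (0.988). Each is the highest value among the other measured genes, with clone names and predicted symbols left out. The arrays are few and differ in sex and in brown fat markers as well as in genotype, so the values are given as a description.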

How the data were processed

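Hearts of 3 knockout and 3 wild-type mice were measured on 1 array each. The submitters' processing notes name GCOS 1.4 and RMA. What the authors deposited is on a log2 scale, made with RMA per the series' design text, a method that gives all arrays one distribution at the level of probes and compresses differences near the floor. Arrays carry no read depth, and the number of arrays limits precision. Nothing states that same-numbered samples share a litter.

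The 64 control probe sets were left out. Of the remaining 45037, 34945 were annotated to 1 gene, 932 to several and 9160 to none. The brightest single-gene probe set stood for its gene. Symbols and gene order came from RefSeq on GRCm38.p6, where 18032 of 18193 genes matched by identifier. Groups were compared with limma 3.58.1 in R 4.3.3, with Benjamini-Hochberg adjustment over all genes, and the fit was tested on simulated data. Other genes were named by nearness to Mib1 (the nearest 3 on each side), by smallest unadjusted p (10 in the window, 2 per list) or by likeness of profile, without clone names. Ddx3y was not analysed here. The result of 1 of the 7 lists of relatives is not reported here, although its genes are in the totals. The genes, lists and windows were chosen with earlier results of these data known.

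Across genes, departures from the group mean correlated between arrays of one number at 0.54, 0.18 and 0.13 for replicates 1, 2 and 3, all above 0.1, so the numbers were treated as pairs. Crossed pairs of replicates 2 and 3 correlated at 0.35 and 0.30, higher than their same-numbered pairs. The correlations thus match hearts by number for replicate 1 only, and pairs 2 and 3 rest on the labels.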

Additional observations from a re-analysis of the deposited data

How the results depend on the processing

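Of the 10 genes, 9 kept their direction in all 16 alternatives run, and Rock1 changed sign in 5. The number higher in knockout was 6 or 7 in each. Some alternatives could not change these differences, namely the replicate block, the first replicates as a batch and the level filter. Leaving out probe sets with names ending in _s_at, _a_at or _x_at changed only the difference of Mapre2. Differences of Abhd3 ran from 0.42 to 0.91, those of Aqp4 from 0.20 to 0.60 and those of Zfp397 from 0.10 to 0.70, the lowest of the last 2 with probe sets averaged. No neighbour and no family gene passed an adjusted p of 0.05 in the alternatives where this was tested, which leave out knockout replicate 2 alone and, for family genes, replicates 2 and 3 alone, the windows and all probe sets. Leaving out 1 heart at a time gave 5 to 10 of the 10 genes and 8.33% to 35.7% of the 84 neighbours without overlap, beside 14.0% to 38.7% of all genes. It put 0% to 17.9% of the neighbours and 2.31% to 29.2% of family genes at an unadjusted p under 0.05, beside 2.18% to 17.5% of all genes. The highest of each was without knockout replicate 1, and fewer hearts make overlap rarer by construction. With the replicate block, 2.38% of neighbours and 12.3% of family genes had an unadjusted p under 0.05, beside 7.29% of all genes. The block changed no adjusted call among neighbours or family genes, while over all genes it raised the calls from 0 to 13. A further quantile normalization left 2 of the 10 genes (Aqp4 and Dsc2) without overlap and 8.33% of neighbours, beside 10.4% of all genes, and median centring left 3 (Aqp4, Bambi and Kif5b) and 5.95%, beside 8.81% of all genes. Replicates 2 and 3 alone, an alternative added after the data were seen like that of knockout replicate 2 alone, left 10 genes and 46.4% of neighbours without overlap, beside 46.6% of all genes, and 10.7% of neighbours, beside 13.1% of all genes, at an unadjusted p under 0.05. That last share was 7.14% with the Xist level as a covariate (7.46% of all genes) and 3.57% with the first replicates as a batch (15.4% of family genes, 9.25% of all genes). It was 2.38% with probe sets averaged (4.47% of all genes). With every probe set tested singly it was 3.14% of the probe sets of the neighbours, and the same share over the whole array was not taken. By brightest probe set, the share was 2.44% within 5 Mb and 4.67% beyond 20 Mb, beside 4.10% of all genes. The share without overlap was 8.33% with probe sets averaged and 1.39% at a mean level of at least 5, beside 9.62% and 8.93% of all genes. Within 5 Mb that share was 4.88% and beyond 20 Mb 9.62%, beside 8.86% of all genes. Beyond what is said here, the cause of these changes was not tested.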
